A study of Saccharomyces cerevisiae with 10 samples.

Results

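The strains described here are the yeast deletion strains that each lack 1 gene named ATG followed by a number, the genes of autophagy. The barcode array carried tags for 36 such genes on 132 spots, and 35 of the strains were measured, all 35 by both of their tags, out of 4611 strains measured in all. The strain that was not measured lacks ATG7, the E1-like enzyme that activates Atg8 and Atg12, because neither of its spots held a value. ATG44 has no spot under that name and was not analysed here, and the strains for ATG6 and ATG24 appear under their standard names VPS30 and SNX4 among the related strains described last.

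Autophagy encloses part of the cytoplasm in a double membrane, the autophagosome, and delivers it to the vacuole to be broken down and reused. In yeast it is run at a low level in rich medium and is induced by starvation through the TOR and Snf1 kinases, and selective forms of it remove mitochondria, peroxisomes, endoplasmic reticulum or protein aggregates. A constitutive branch, the cytoplasm-to-vacuole targeting (Cvt) pathway, uses most of the same proteins to carry hydrolases to the vacuole. Hydrogen peroxide is a reactive oxygen species that damages these organelles, and a mild dose of it makes yeast more tolerant of a later high dose.

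Each array compared the 2 portions of 1 culture of the pooled haploid deletion strains of Saccharomyces cerevisiae, grown in YPD, a rich medium. The sources used here name the BY4741 background for single strains of the collection and no background for the pool. On the 4 acute arrays, 1 portion received 0.4 mM hydrogen peroxide for 1 h and the other was untreated. On the 6 adapted arrays, both portions received 0.4 mM for 1 h, and 1 of them had been given 0.1 mM for 45 min beforehand while the other received a sham treatment. All portions then grew for 5 h in fresh YPD before DNA was extracted. Each gene is represented by 1 strain grown in competition with the whole pool, autophagy itself was not measured, and a strain's ratio reflects survival and regrowth together. A value is the log of the more heavily treated portion over the other, read as a natural log and averaged over the tags measured, so that a strain below 0 was scarcer in the treated portion, which on the adapted arrays is the pretreated one. The 3 questions were which strains were lost after the high dose (acute over untreated), which gained or lost from the pretreatment (adapted over acute), and which departed from the recovery that their acute loss would give (the adaptive contrast, in which a value above 0 means that a strain was more sensitive in the adaptive protocol). The contrast uses all 10 arrays and is not independent of the other comparisons.

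Over the pool, 166 of 4611 strains passed an unadjusted p of 0.005 in the acute comparison, 128 in the adapted comparison and 79 in the contrast, and 3, 1 and 16 passed a Benjamini-Hochberg adjusted p of 0.05. Strains lacking the peroxide-response transcription factors YAP1 and SKN7 served as controls of direction. Their acute means were −1.64 ± 0.13 (SE) and −1.49 ± 0.14, and yap1Δ, which was read by its first tag alone, was the lowest of all strains. In adapted over acute they were −0.40 ± 0.13, with 5 of 6 arrays below 0, and −0.51 ± 0.08, with all 6 below 0. Arrays of 1 comparison correlated between −0.11 and 0.51 across strains in the acute set and between −0.28 and 0.60 in the adapted set, where the lowest pair was replicates 2 and 4. Over distinct spots that pair had a correlation of −0.35. On the first tags alone it had −0.66, with 4 of 15 adapted pairs below −0.3, and acute replicates 1 and 4 had −0.44. On the second tags 0 pairs of either set lay below −0.3. The direction of the adapted ratios, which comes from the dyes in the labels, is therefore a likely one. Turning it would reverse the sign of every adapted value given below. Whether any single array, acute or adapted, has the opposite sign to its set was not tested. Every array carried the treated portion in the same dye, and an effect of the dye cannot be told apart from one of the treatment.

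After the high dose, no ATG strain departed from the pool past the test's threshold. In the acute comparison 0 of 35 passed p 0.005, against 3.6% of all strains, and at p 0.05 there were 3, against 12.7% of all strains. These were atg5Δ and atg12Δ below 0 (6.92% of all strains) and atg15Δ above 0 (5.75%), and 0 passed an adjusted p of 0.05 (0.0651%). The 35 means ran from −0.31 for atg5Δ to 0.38 for atg9Δ, with 17 below 0 and 18 above. Their median was 0.000353, beside −0.015 for all strains. The SD between arrays of an ATG strain had a median of 0.217, beside 0.225 in the pool. The ATG strains thus spread between arrays about as much as other strains, around a centre close to 0.

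**Figure D1:**
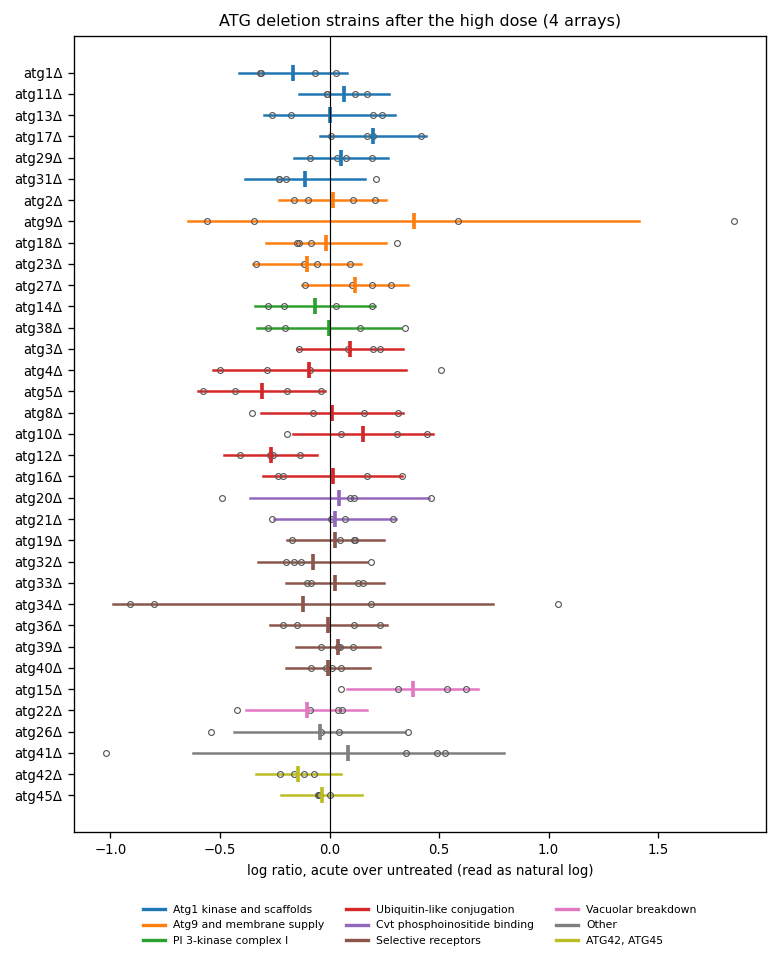
Log ratio of acute over untreated (horizontal axis, read as natural log) for the 35 ATG strains, grouped by role. Open circles are the 4 arrays, vertical ticks the means and horizontal lines the 95% confidence intervals from limma. Most intervals include 0, those of atg5Δ, atg12Δ and atg15Δ do not, and atg9Δ, atg34Δ and atg41Δ are the most spread.

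The strains of the ubiquitin-like conjugation system held both of the lowest acute means. This system joins Atg12 to Atg5 and Atg8 to a membrane lipid. In the strain without ATG5 (YPL149W), the acceptor of Atg12, the acute log ratios were −0.58, −0.43, −0.19 and −0.04 on replicates 1 to 4. All 4 lay below 0, the last of them barely. The mean was −0.31 ± 0.11 (SE), which corresponds to a ratio of 0.733, with a 95% confidence interval from −0.60 to −0.02 and limma's adjusted p = 0.351. In the strain without ATG12 (YBR217W), the ubiquitin-like protein that is joined to Atg5, the values were −0.14, −0.27, −0.41 and −0.26. These 4 arrays were closer together than those of atg5Δ, and their mean was −0.27 ± 0.08 (SE) with an interval from −0.48 to −0.06 and limma's adjusted p = 0.267. Neither strain passed the threshold of 0.005, although both passed p 0.05, and 0 of the other 5 measured strains of the system did so.

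The means of the remaining strains of the system lay closer to 0, although no difference from atg5Δ or atg12Δ was tested and the interval of atg4Δ, from −0.53 to 0.35, holds the means of both. The strain without ATG10, the E2-like enzyme that puts Atg12 onto Atg5, had a mean of 0.15 ± 0.13 (SE), and the one without ATG16, which binds the Atg12-Atg5 conjugate, had 0.01 ± 0.13. On the Atg8 arm, the strains without ATG3, the E2-like enzyme of Atg8 lipidation, and ATG8 itself had means of 0.09 ± 0.10 and 0.01 ± 0.13. The strain without ATG4, the protease that trims and releases Atg8, had −0.09 ± 0.18. Over the 7 strains 3 means were below 0 and 4 above, with a median of 0.01.

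The only acute interval of an ATG strain wholly above 0 was that of atg15Δ, 1 of the 2 strains of breakdown inside the vacuole. ATG15 (YCR068W) encodes the lipase that opens autophagic bodies in the vacuole, and its strain had log ratios of 0.05, 0.31, 0.54 and 0.62 on replicates 1 to 4. All 4 arrays were above 0, and replicate 1 was the closest to it, although the second tag by itself was below 0 on 2 of the 4. The mean was 0.38 ± 0.12 (SE), a ratio of 1.46, with an interval from 0.08 to 0.68 and limma's adjusted p = 0.267. The strain without ATG22, a vacuolar exporter of amino acids, had a mean of −0.10 ± 0.11.

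The highest acute mean belonged to the strain without ATG9 (YDL149W), the membrane protein of the vesicles that seed the autophagosome, but its arrays disagreed. They gave −0.56, 0.59, −0.34 and 1.85 on replicates 1 to 4, so that 2 lay below 0 and 2 above. The mean of 0.38 had a standard error of 0.41 and an interval from −0.64 to 1.41 (limma's adjusted p = 0.869), and without replicate 4 it was −0.05. The other 4 strains of membrane supply had acute means from −0.10 for atg23Δ, which lacks a peripheral protein of Atg9 traffic, to 0.12 for atg27Δ, which lacks a membrane protein of the same traffic. Those without ATG2, a lipid transfer protein, and ATG18, its phosphoinositide-binding partner, had means of 0.01 ± 0.10 and −0.02 ± 0.11.

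The 6 strains of the Atg1 kinase complex and its scaffolds, which start autophagosome formation, were spread on both sides of 0 in the acute comparison. The lowest was atg1Δ, without the kinase itself, at −0.17 ± 0.10 (SE), and the highest was atg17Δ, without the scaffold of starvation-induced autophagy, at 0.20 ± 0.10. In atg17Δ the log ratios were 0.01, 0.20, 0.42 and 0.17, all above 0, although the first tag by itself was below 0 on 2 of the 4. In the strains without ATG13, the regulatory subunit that TOR controls, and ATG11, the scaffold of selective autophagy, the means were 0.00 ± 0.12 and 0.07 ± 0.08. The strains without ATG29 and ATG31, the other subunits of the Atg17 scaffold, had 0.05 ± 0.09 and −0.11 ± 0.11. No strain of this group passed p 0.05.

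Among the receptors of selective autophagy, 7 strains had acute means from −0.12 to 0.04, the narrowest span of the groups with 5 or more members. The strain without ATG32, the mitophagy receptor of the outer mitochondrial membrane, had a mean of −0.08 ± 0.10, and the one without ATG33, another mitophagy protein of that membrane, had 0.02 ± 0.09. Those without ATG36, the pexophagy receptor, and ATG19, the receptor of the Cvt pathway, had −0.01 ± 0.11 and 0.03 ± 0.09. Those without ATG39 and ATG40, receptors of the nuclear envelope and the endoplasmic reticulum, had 0.04 ± 0.08 and −0.01 ± 0.08. The strain without ATG34, the receptor of alpha-mannosidase, had the widest interval of the group at −0.12 ± 0.35.

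The remaining acute means were small as well. The strains without ATG14 and ATG38, subunits of the phosphatidylinositol 3-kinase complex of autophagy, had −0.07 ± 0.11 (SE) and −0.00 ± 0.13. Those without ATG20, a sorting nexin, and ATG21, a phosphoinositide-binding protein, both of the Cvt pathway, had 0.05 ± 0.16 and 0.03 ± 0.11. Those without ATG26, a sterol glucosyltransferase, and ATG41, needed for autophagy after starvation, had −0.05 ± 0.16 and 0.09 ± 0.28. The strain without ATG42, a vacuolar serine carboxypeptidase, was below 0 on all 4 arrays at −0.23 to −0.07, with a mean of −0.14 ± 0.08 (limma's adjusted p = 0.603), and atg45Δ had −0.04 ± 0.07. In all, 3 ATG strains lay below 0 on every acute array (atg5Δ, atg12Δ and atg42Δ, beside 10.8% of the pool) and 2 lay above 0 on every one (atg15Δ and atg17Δ, beside 9.17%). These are averages of 2 tags. Before normalization the first and second tag means had opposite signs in atg42Δ (0.01 and −0.28) and atg17Δ (−0.03 and 0.43). The second tag was above 0 on acute replicates 1 and 3 in atg12Δ and on acute replicate 1 in atg5Δ.

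Pretreatment likewise changed the abundance of no ATG strain past the threshold. In adapted over acute, 0 of 35 passed p 0.005, against 2.78% of all strains, and at p 0.05 there were 2, atg27Δ below 0 and atg36Δ above, against 10.8% in all, 6.38% below 0 and 4.47% above. At an adjusted p of 0.05 there were 0 (0.0217% of all strains). The means ran from −0.32 for atg34Δ to 0.33 for atg36Δ, with 19 below 0 and 16 above. Their median was −0.0047, beside −0.0127 for all strains. The median SD between arrays was 0.197, beside 0.229 in the pool.

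**Figure D2:**
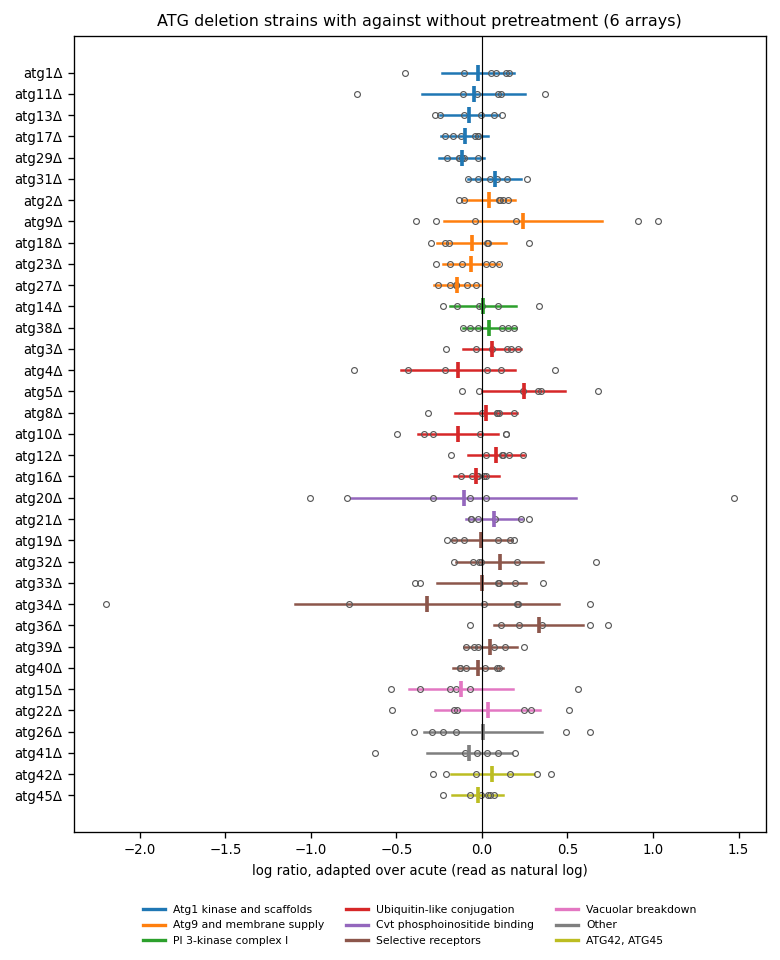
Log ratio of adapted over acute (horizontal axis, read as natural log) for the 35 ATG strains in the same order. Open circles are the 6 arrays, vertical ticks the means and horizontal lines the 95% confidence intervals from limma. The interval of atg36Δ lies above 0 and that of atg27Δ below it, and atg34Δ has 1 array at −2.20.

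The highest adapted mean was that of the strain without the pexophagy receptor gene ATG36 (YJL185C). Its lowest array was at −0.07, its median at 0.29 and its highest at 0.74. Of the 6 arrays 5 were above 0, and the mean was 0.33 ± 0.11 (SE), a ratio of 1.39, with an interval from 0.07 to 0.59 and limma's adjusted p = 0.298. Differences between receptor strains were not tested. The means of atg19Δ, atg32Δ, atg33Δ, atg39Δ and atg40Δ lay between −0.02 and 0.11, none past p 0.05, and atg34Δ was at −0.32 ± 0.34. The interval of atg32Δ, from −0.15 to 0.36, holds the mean of atg36Δ.

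The next highest adapted mean belonged to atg5Δ, which had the lowest acute mean. Its lowest array was at −0.12, its median at 0.28 and its highest at 0.68, with 4 of 6 arrays above 0. The mean was 0.24 ± 0.11 (SE), with an interval from −0.0003 to 0.49 and limma's adjusted p = 0.46. Its conjugation partner strain atg12Δ had 5 of 6 arrays above 0 and a mean of 0.08 ± 0.07. The other 5 conjugation strains had adapted means from −0.14 to 0.06. The strain atg15Δ, whose acute interval lay above 0, had 5 of 6 adapted arrays below 0, with 1 at 0.56, and a mean of −0.12 ± 0.13.

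At the low end, atg34Δ (YOL083W) had its lowest array at −2.20, its median at 0.11 and its highest at 0.63. A single array, replicate 1, set its mean of −0.32 ± 0.34 (SE), which was 0.08 without that array, and the interval ran from −1.09 to 0.45 (limma's adjusted p = 0.833). The next lowest was atg27Δ (YJL178C), whose arrays were close together, with the lowest at −0.26, the median at −0.15 and the highest at −0.03. All 6 lay below 0, and the mean was −0.15 ± 0.06, a ratio of 0.865, with an interval from −0.28 to −0.01 and limma's adjusted p = 0.419. For atg9Δ, whose protein depends on Atg27 for its traffic, the adapted arrays ran from −0.39 to 1.03 with a mean of 0.24 ± 0.20, 3 of 6 above 0.

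Of the Atg1 kinase complex strains, 5 of 6 had adapted means below 0, beside 2511 of all 4611 strains. Their median was −0.06, and none passed p 0.05. Both atg17Δ and atg29Δ, which lack subunits of 1 scaffold, were below 0 on all 6 arrays, with means of −0.10 ± 0.06 (SE; limma's adjusted p = 0.611) and −0.12 ± 0.06 (adjusted p = 0.515). Each mean came mostly from 1 tag, and not the same one. Before normalization the first and second tag means were −0.01 and −0.18 in atg17Δ, and −0.22 and 0.0018 in atg29Δ. The first tag of atg17Δ and the second tag of atg29Δ were each below 0 on 3 of 6 arrays. The strain lacking the remaining scaffold subunit, atg31Δ, was the 1 of the group above 0, at 0.07 ± 0.07. With atg27Δ, the strains atg17Δ and atg29Δ made 3 ATG strains below 0 on every adapted array, beside 3.93% of the pool, and 0 were above 0 on every one, beside 3.43%. With no moderation of the spread, atg29Δ passed p 0.005 in adapted over acute, with an adjusted p of 0.22.

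In the adaptive contrast, 0 of 35 ATG strains passed p 0.005, against 1.71% of all strains, and 0 passed p 0.05, against 5.55% in all, 1.54% below 0 and 4.01% above. At an adjusted p of 0.05 there were also 0 (0.347%). Their median was 0.03, beside 0.02 for all strains, with 16 values below 0 and 19 above. Arrays of the strains at the ends were widely spread. The lowest was atg9Δ at −0.62 ± 0.46 (SE), the value ranked 12 from the lowest of 4611 strains, with an interval from −1.63 to 0.39 and limma's adjusted p = 0.999. The highest was atg34Δ at 0.44 ± 0.55, followed by atg4Δ at 0.23 ± 0.25. Single arrays moved these values by over 1.5 times. Leaving out 1 array gave contrasts from −0.97 (without acute replicate 1) to −0.19 (without acute replicate 4) for atg9Δ, from 0.046 (without adapted replicate 1) to 0.81 (without acute replicate 2) for atg34Δ, and from 0.092 (without adapted replicate 2) to 0.46 (without acute replicate 1) for atg4Δ. The smallest p of the 35 was that of atg36Δ, at −0.33 ± 0.17 (limma's adjusted p = 0.999). The strains atg5Δ and atg12Δ had contrasts of 0.07 ± 0.17 and 0.19 ± 0.10. This order rests on the likely direction of the adapted arrays. With that sign turned, 0 ATG strains again passed p 0.005 and 5 passed p 0.05, 3 below 0 (atg15Δ, atg17Δ and atg27Δ) and 2 above (atg5Δ and atg12Δ). Of all 4611 strains, 434 then passed p 0.05 below 0 and 430 above, and 176 and 180 passed p 0.005. The lowest ATG strain was then atg15Δ at −0.50 ± 0.20 and the highest atg5Δ at 0.55 ± 0.17, with atg12Δ at 0.35 ± 0.10 and atg9Δ at −0.14 ± 0.46.

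**Figure D3:**
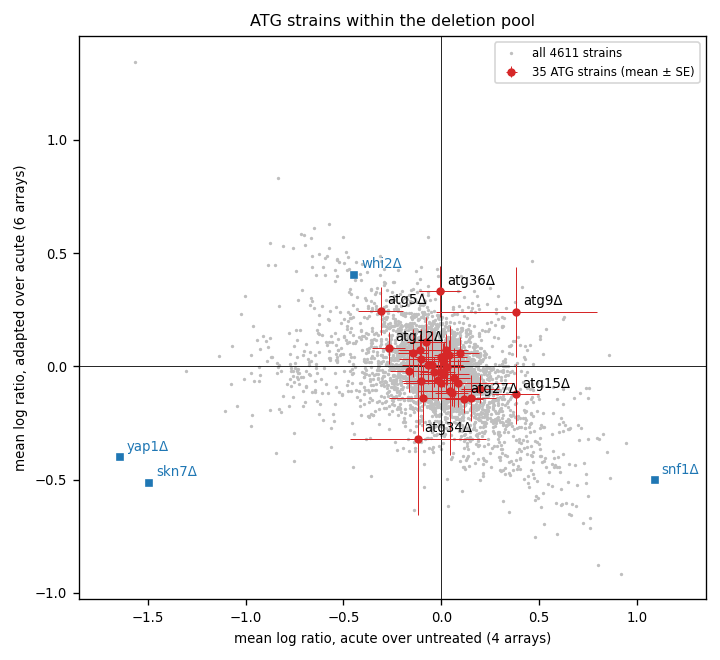
Mean log ratio of adapted over acute (vertical) against that of acute over untreated (horizontal) for all 4611 strains (grey) and the 35 ATG strains (red, with SE). The ATG strains sit around 0 within the pool, far from yap1Δ at −1.64 and skn7Δ at −1.49 on the acute axis.

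Read on both axes, 10 ATG strains were below 0 acutely and above 0 in adapted over acute, as atg5Δ and atg12Δ were, and 12 were the reverse, as atg15Δ and atg17Δ were. A further 7 were below 0 on both and 6 above 0 on both. In the pool these counts were 1438, 1421, 1090 and 662. The comparisons use different cultures and arrays.

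The intervals show how large an effect these arrays could have missed. In the acute comparison 29 of the 35 intervals lay wholly within 0.5 of 0 and 5 within 0.25. For adapted over acute these counts were 31 and 17, and for the contrast 26 and 2. The value of yap1Δ lay outside all 35 intervals acutely and in the contrast, and outside 31 of 35 in adapted over acute, where yap1Δ itself was closer to 0. For the other strains the interval reached beyond 0.25 in at least 1 direction.

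Each ATG strain was read by 2 tags of different sequence, and these agreed in sign less often than in the pool, a difference that was not tested. In the acute comparison the mean of the first tag and that of the second had the same sign in 13 of 35 ATG strains (37.1%), against 58.8% of the 4478 strains of the pool with both tags. On the adapted arrays it was 18 of 35 (51.4%), against 57.9%. Across these strains the Pearson correlation of the tag means was −0.22 acutely and 0.21 in adapted over acute, against 0.40 and 0.30 in the pool, as a description over strains that share the same arrays. On single arrays the tags of the pool had correlations of only 0.06 to 0.22, and those of the ATG strains −0.59 to 0.65. The sources used here do not say which tag is upstream and which downstream.

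Large single tag readings were found in a few strains. Of the 35, 7 (atg4Δ, atg9Δ, atg20Δ, atg22Δ, atg26Δ, atg34Δ and atg41Δ) had a tag log ratio beyond 1.5 in size on some array, beside 21.8% of the pool. The most extreme was 5.38, on the second tag of atg34Δ on acute replicate 2, where the first tag of the same strain read −2.19. Without these 7 the Pearson correlation of the tag means moved to 0.27 acutely and 0.37 in adapted over acute. The Spearman rank correlations were then 0.06 and 0.17, beside 0.33 and 0.24 in the pool, from which no strain was left out. The acute share of equal signs also stayed below that of the pool. Among the 28 other ATG strains the tags had the same sign in 11 (39.3%) acutely and in 17 (60.7%) in adapted over acute.

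**Figure D4:**
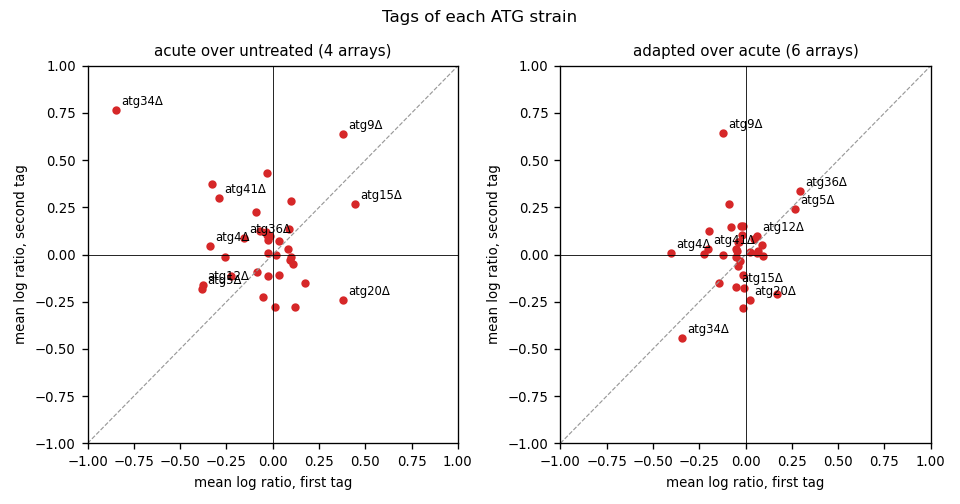
Mean log ratio of the second tag (vertical) against that of the first (horizontal) for the 35 ATG strains, on the acute arrays (left) and the adapted arrays (right), before quantile normalization. The dashed line marks equal values, and atg34Δ and atg41Δ lie far from it on the acute panel while atg5Δ and atg36Δ lie near it on the adapted panel.

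In atg5Δ and atg12Δ both tag means were below 0 acutely, in atg15Δ both were above, and in atg36Δ and atg5Δ both were above in adapted over acute. In atg9Δ the tags parted. Its second tag was above 0 on all 10 arrays, from 0.19 to 1.63, while its first tag ran from −1.20 to 2.77. Read from the second tag alone, atg9Δ had an acute mean of 0.77 ± 0.16 (SE; limma's adjusted p = 0.162) and a contrast of −1.40 ± 0.28 (limma's adjusted p = 0.134), both past the unadjusted threshold. Read from the first tag alone, its contrast was 0.12. Before normalization the second tag of atg9Δ had a mean of 0.64 on the acute arrays and 0.64 on the adapted arrays. The contrast subtracts both means, so an offset of a tag with the same sign in both sets adds up in it. Whether this tag carries an effect of the dye was not tested.

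Genes that work in autophagy under other names were examined as a list of 54, of which 49 strains were measured. Their medians were −0.04 acutely, −0.00 in adapted over acute and 0.04 in the contrast. In the acute comparison 1 strain passed p 0.005 below 0 (whi2Δ, beside 2.67% of the pool) and 1 above (snf1Δ, beside 0.933%). In adapted over acute 0 passed below 0 (1.52%) and 1 above (whi2Δ, beside 1.26%), and in the contrast 0 passed in either direction. With the adapted sign turned, 2 passed in the contrast, snf1Δ below 0 and whi2Δ above, beside 176 of all 4611 strains below 0 and 180 above.

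WHI2, a general stress response gene that is also needed for mitophagy, was the 1 strain of the list past the threshold in both of these comparisons. Its acute log ratios were −0.41, −0.48, −0.50 and −0.39 on replicates 1 to 4. All were well below 0 and close together, with a mean of −0.44 ± 0.08 (SE; limma's adjusted p = 0.0993). With pretreatment the lowest of the 6 arrays was at 0.17, the median at 0.41 and the highest at 0.60, all above 0, with a mean of 0.40 ± 0.08 (limma's adjusted p = 0.0879). The contrast was 0.04 ± 0.11, and 0.85 ± 0.11 with the adapted sign turned (limma's adjusted p = 0.00258). The means of atg5Δ lay on the same sides of 0 in both comparisons, as did those of 10 of the 35 ATG strains in all and 1438 of all 4611 strains. Leaving out acute replicate 2, 3 or 4 took the acute p of whi2Δ above 0.005, with means from −0.46 to −0.40, as did the second tag set alone (−0.45) and a spread shared by all strains.

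The strain without SNF1, the AMP-activated kinase that acts upstream of autophagy in glucose starvation, had the highest acute mean of all 4611 strains. Its log ratios were 1.40, 0.53, 0.86 and 1.57, all above 0, with a mean of 1.09 ± 0.19 (SE; limma's adjusted p = 0.0995). Leaving out acute replicate 1, 3 or 4 took its p above 0.005, with means from 1.00 to 1.21, as did the first tag set alone (0.70), the second alone (1.60) and no moderation of the spread. In adapted over acute its mean was −0.50 ± 0.16 (limma's adjusted p = 0.272), with 5 of 6 arrays below 0.

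**Figure D5:**
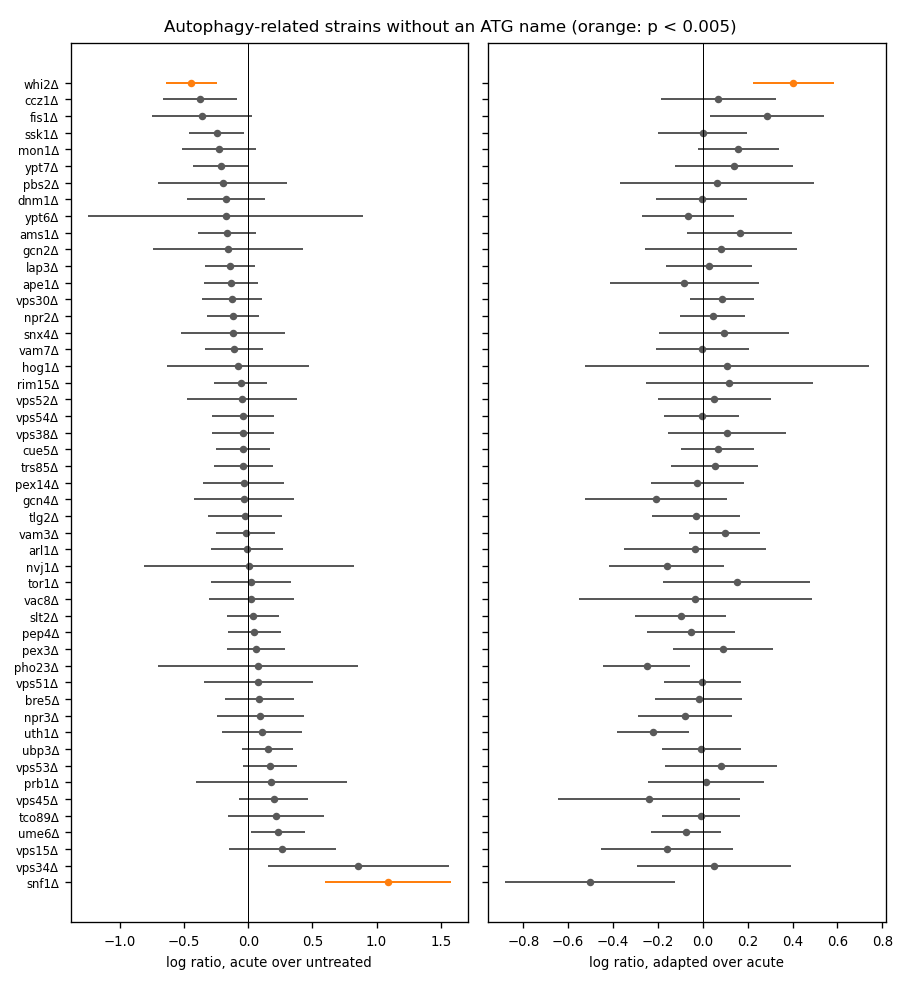
Mean log ratio with 95% confidence interval from limma for the 49 measured strains of autophagy genes without an ATG name, acute over untreated (left) and adapted over acute (right), ordered by the acute mean. Orange marks an unadjusted p under 0.005, which whi2Δ reached on both sides and snf1Δ in the acute comparison.

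The ends of the list in the contrast were vps34Δ and ccz1Δ. VPS34, the phosphatidylinositol 3-kinase, had an acute mean of 0.86 ± 0.28 (SE; limma's adjusted p = 0.29) and the lowest contrast of the list at −0.91 ± 0.32 (limma's adjusted p = 0.538), while VPS15, its regulatory subunit, had 0.26 ± 0.16 acutely and VPS30, which is ATG6, had −0.13 ± 0.09. The fellow subunits ATG14 and ATG38 are given above and lay close to 0. In vps34Δ the tags parted on the acute arrays. Before normalization its first tag was at 0.60 or above on all 4. Its second tag ran from −0.26 to 0.65 and was below 0 on replicates 1, 2 and 4. CCZ1 encodes part of the exchange factor that activates the vacuolar Rab protein Ypt7. Its strain had the highest contrast at 0.31 ± 0.17 and an acute mean of −0.38 ± 0.11 (limma's adjusted p = 0.24). That acute mean came mostly from the second tag, which was below 0 on all 4 arrays, with the lowest at −1.65. The first tag of ccz1Δ ran from −0.25 to 0.12 and was above 0 on replicates 2 and 4. With the adapted sign turned the contrasts were −0.81 ± 0.32 for vps34Δ and 0.44 ± 0.17 for ccz1Δ, and the ends of the list were snf1Δ at −1.59 ± 0.27 and whi2Δ. The strains of MON1, the partner of CCZ1, and of YPT7, which was read by its first tag alone, had acute means of −0.23 ± 0.11 and −0.21 ± 0.08. Both of these and ccz1Δ were among the 11 of 49 related strains below 0 on all 4 acute arrays, beside 10.8% of the pool. Above 0 on all 4 were 5 of the 49, beside 9.17%. On every adapted array 2 of the 49 were below 0, beside 3.93% of the pool, and 1 was above, beside 3.43%. The strains of VAM3 and VAM7, SNARE proteins of vacuole fusion, had acute means of −0.02 ± 0.09 and −0.11 ± 0.09 with 1 array above 0 each. The strain of SNX4, which is ATG24, had −0.12 ± 0.16.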

How the data were processed

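The authors scanned 2-colour barcode arrays, corrected the intensities by median and loess with the hoptag package in R, and deposited 1 log ratio per spot, read here as a natural log (ln). No source used here names the log base, and with another base all means and errors would be multiplied by 1 constant while p-values stayed. Spot intensities were not used here, and precision rests on the number of arrays. Each array is its own culture from a separate aliquot of the pool.

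Of 22575 spots, 16850 held a value on all arrays. The platform annotation names 18794 spots and 18786 of these matched RefSeq. Copies of first-tag spots up to spot 5375 had the size of their main spot with the opposite sign (3510 copies, tolerance 1e-09), those from 5409 on were equal (350), and all 3760 of the second tag set were equal. These copies place a change of sign in the first tag set between spots 5375 and 5409. They do not show which side is right or the sign of the second tag set. Spots up to 5400 were kept and all others turned, which turned the first tag of 6 ATG strains. In the pool the tags correlated at −0.02 to 0.28 on single acute arrays where the first tag was turned. Where it was kept, these correlations were 0.09 to 0.22. Copies were counted once.

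The tags of a strain were averaged on each array, followed by quantile normalization over the arrays of a comparison. Two-sided tests used limma 3.58.1 (lmFit and eBayes) in R 4.3.3 on all 4611 strains, without a replicate block, at an unadjusted p of 0.005 as in the study's methods, with Benjamini-Hochberg values beside it; the fit was tested on simulated data. Figures were drawn in matplotlib 3.10.9 and tables in pandas 2.3.3 (Python 3.11.15, with scipy 1.17.1 and numpy 2.4.6). Same-numbered acute and adapted arrays had correlations of 0.34, −0.26, 0.17 and 0.24 in their deviations, so the numbers were not taken to pair them.

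The members, role groups and the list of related genes were chosen with earlier results of these data known. Named in full were strains past p 0.005 and the 2 lowest and 2 highest ATG means of each comparison; atg17Δ, atg29Δ and atg42Δ and related strains other than whi2Δ, snf1Δ, vps34Δ and ccz1Δ were chosen after their values were seen. Alternatives were each tag set alone, no quantile normalization, other treatments of the spread, a replicate block, leaving out each array and, chosen after seeing the data, the adapted sign turned.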

Additional observations from a re-analysis of the deposited data

Results flagged for a closer look

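In 70 groups of arrays (35 ATG strains, acute and adapted), 6 held 1 array that stood far from the others by Dixon's criterion, which chance alone does in about 1 of 20 groups. In atg41Δ, acute replicate 4 was at −1.02 while the other 3 arrays lay between 0.35 and 0.53, and adapted replicate 1 was at −0.63 with the nearest other array at −0.10. In atg31Δ, acute replicate 1 was at 0.21 and the others lay between −0.23 and −0.20. In atg18Δ, acute replicate 2 was at 0.31 and the others lay between −0.15 and −0.09. In atg8Δ, which lacks the ubiquitin-like protein of the autophagosome membrane, adapted replicate 4 was at −0.31 with the nearest other array at 0.00. In atg45Δ, acute replicate 1 was at 1.9e-05 and the others lay between −0.05 and −0.04, a gap within a group whose SD of 0.0244 was the smallest of the 35.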

How the results depend on the processing

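No ATG strain passed p 0.005 in any of the 3 comparisons when any single array was left out, without quantile normalization, with median centring, or after Benjamini-Hochberg adjustment. The exceptions among the alternatives were 1 strain above 0 acutely and 1 below 0 in the contrast with the second tag set only (atg9Δ in both), 1 below 0 in the contrast with 1 spread shared by all strains (atg9Δ), and 1 below 0 in adapted over acute with no moderation of the spread (atg29Δ). The median ATG contrast was −0.0447 with the second tag set. No signal intensities were used here, so how much of the disagreement between tags comes from dim spots was not tested, and the number of arrays limits every interval.

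Over all 35 ATG strains, 22 acute means, 22 adapted means and 25 contrasts changed sign under at least 1 alternative other than the turned sign, 0 of them past p 0.005 with the new sign. Among the ATG strains named in full, the changes were these. With the second tag set, the acute means became 0.033 for atg4Δ, 0.15 for atg34Δ and 0.13 for atg36Δ, the adapted mean of atg4Δ became 0.023, and the contrasts became −0.056 for atg4Δ and −0.13 for atg5Δ. With the first tag set, atg9Δ had an adapted mean of −0.30 and a contrast of 0.12. With the adapted sign turned, the contrasts became −0.046 for atg4Δ, −0.26 for atg27Δ, −0.20 for atg34Δ and 0.34 for atg36Δ. Leaving out 1 array gave acute means from −0.33 to 0.028 for atg4Δ, −0.053 to 0.73 for atg9Δ, −0.49 to 0.21 for atg34Δ and −0.096 to 0.078 for atg36Δ, adapted means from −0.26 to 0.00057 for atg4Δ and −0.55 to 0.075 for atg34Δ, and contrasts from −0.0098 to 0.15 for atg5Δ and −0.050 to 0.074 for atg27Δ. The cause was not tested for any of these.

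Counts over all strains moved more. Acutely, 123 strains below 0 became 56 with the first tag set, 49 with no moderation and 3 after adjustment, and 66 to 86 with 1 array left out. The 43 above 0 became 20, 21 and 0 in the same settings, 81 with a shared spread, and 13 to 42 with 1 array left out. In adapted over acute, 70 below 0 became 32, 44 and 0 in the same settings, 135 with a shared spread, and 35 to 64 with 1 array left out, and 58 above 0 became 33 with the first tag set and 1 after adjustment. In the contrast, 8 below 0 became 2 with the first tag set, 5 with no moderation, 176 with the adapted sign turned and 0 after adjustment, and 2 to 9 with 1 array left out, and 71 above 0 became 42 and 45 with the first and the second tag set, 44 with no moderation, 116 with a shared spread, 180 with the sign turned and 16 after adjustment. With the replicate number as a block, 0 ATG strains passed in either direction of the contrast, 6 strains of the pool passed below 0 and 65 above, the median ATG contrast was 0.00798, and no other call changed. Only acute replicate 3 correlated best with its own number among the adapted arrays.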
